A study of Mus musculus with 9 samples.

Results

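Germinal centers are transient structures of the spleen and lymph node in which activated B cells divide, mutate their antibody genes and are selected for better antigen binding. The baseline transcriptome of these cells was described here from the 3 wild-type (WT) arrays among the 9 arrays of the series. The genotype of these mice was FOXO1+/+, Cg1-Cre, meaning that both Foxo1 alleles were intact and that the mice still carried the Cre transgene, which is driven by the immunoglobulin gamma 1 constant region locus and is therefore active in B cells that transcribe that locus. The mice were 10 weeks old and received sheep red blood cells at day 0 and again at day 5, with spleens taken at day 12. After a B cell enrichment of the spleen, flow sorting kept the cells with high B220, high CD95 and high binding of peanut agglutinin (PNA). Each array is labelled as a single animal, whereas the design text speaks of pools of splenic mononuclear cells, so the spread between arrays is taken as the spread between these 3 samples. All 18193 genes with a probe set of a single gene symbol were ranked by mean signal, each gene by its brightest probe set. No genotype was compared, and with only 1 group there was no test to run. Every value is a description.

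A germinal center has a dark zone, where B cells proliferate and mutate their immunoglobulin genes, and a light zone, where B cells take up antigen from follicular dendritic cells and present it to follicular helper T cells. BCL6 is the transcriptional repressor that defines the program. It keeps cells from becoming plasma cells and raises the tolerance for DNA damage that mutation and rapid division bring. Cells leave as memory B cells or as plasma cells, the latter under BLIMP1, the product of Prdm1. FOXO1 is required to form the dark zone.

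The unit was the MAS5 signal, a linear intensity of arbitrary scale. Genes were placed in 4 tiers. A gene was called abundant when its mean signal was in the top 10% (10% of all genes by construction, 1819 genes). It was called moderate when it was not abundant but lay at or above the array median on all 3 arrays (7893 genes), mixed when it did so on 1 or 2 arrays (767 genes), and dim when it lay below the array median on all 3 (7714 genes, 42.4% of all). Together 53.4% of the genes lay at or above the array median on all 3 arrays. The medians were 44.8, 43.4 and 42.9. Among 27 bacterial control probe sets with no matching RNA the highest signal was 15.7 to 18.6, and the 95th percentile of olfactory receptor genes was 16.9 to 20.5. Dim thus reaches above that background: 4972 genes lay below the olfactory receptor mark on all 3 arrays, against 7714 dim genes. A dim gene is also not one shown to have no RNA, because the signal also depends on how well the probes of a set bind. Rps16, a ribosomal protein gene, was listed at 0.750 while most genes of its family were abundant, and Pax5, which maintains B cell identity, at 126. For the same reason the signals of different genes are compared here only by tier.

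**Figure D1:**
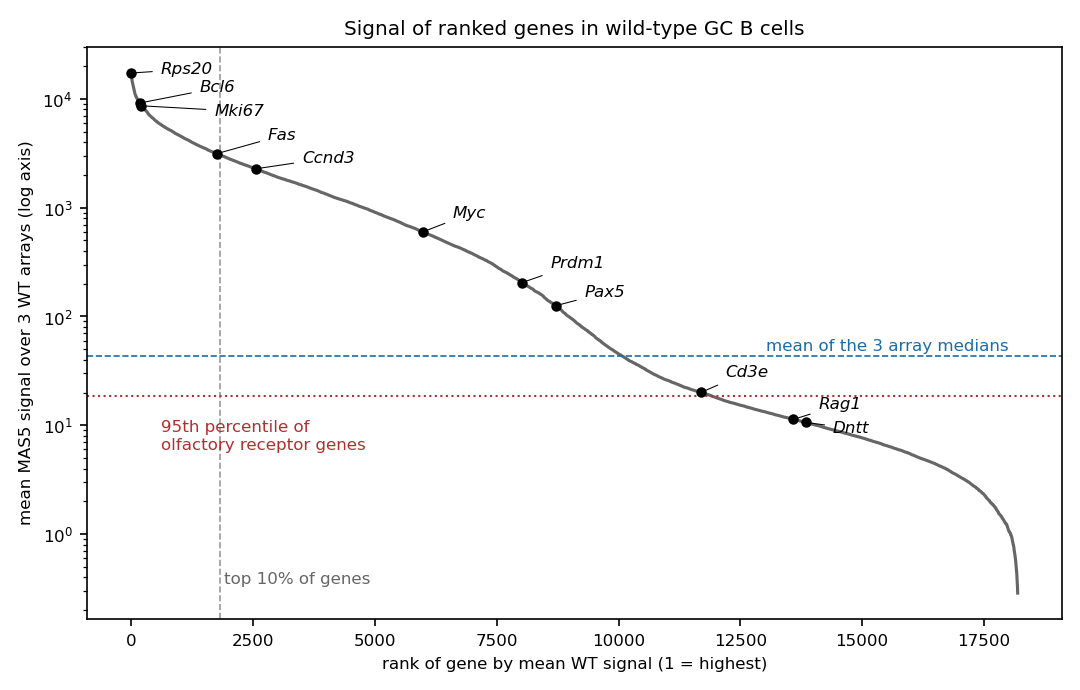
Mean MAS5 signal over the 3 WT arrays (log axis) against the rank of each of 18193 genes, with named genes as points. The dashed vertical line marks the top 10% of genes, the dashed horizontal line the mean of the array medians and the dotted line the 95th percentile of olfactory receptor genes; Bcl6 and Mki67 lie to the left of the vertical line, and Rag1, Dntt and Cd3e lie below the array median.

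The abundant tier ran from a mean signal of 3051 to 17305 and held 57.7% of the summed signal of all genes. The moderate tier held 41.6%, the mixed tier 0.201% and the dim tier 0.495%. At the lower edge of the abundant tier lay Rbm7 at 3051 and Blk, a B cell SRC family kinase, at 3051, and just below it 1110059G10Rik at 3049 and Rnaseh2b at 3048. The lowest moderate genes were Zfhx2 at 46.9 and Gm7967 at 46.6. The highest dim genes were Gm10804 at 42.6 and Cnksr2 at 42.1. Replicate error grew towards the bottom of the ranking. The median coefficient of variation over the 3 arrays was 4.84% in the abundant, 7.65% in the moderate, 31.3% in the mixed and 51.8% in the dim tier. Values below the array median therefore carry little order of their own.

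The 30 genes of highest mean signal were dominated by protein synthesis. Ribosomal proteins made up 15 of the 30, led by Rps20, Rps28, Rps29 and Rpl38. Rps20 gave 16740.2, 17093 and 18081 on replicates 1, 2 and 3. Rps28 gave 15858, 16384 and 18888, highest on replicate 3. The others in this group were Rpl13a, Rpl35, Rpl4, Rpl27a, Rps3, Rps3a1, Rps10, Rpl19, Rpl10a, Rpl7a and Rps7, with means between 13567 for Rps7 and 15997 for Rpl13a. Naca, a chaperone of nascent chains at the ribosome, was also among the 30. The actin cytoskeleton came next, with Cfl1, the actin severing protein cofilin, at 15959, 16204 and 17251, Tmsb4x and Tmsb10, which sequester actin monomers, at 15616 and 14483, and Actb at 15111.

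Genes that mark the lineage also stood among these 30. Cd74, the invariant chain of MHC class II, gave 14793, 15889.9 and 18493. Igk, the kappa light chain locus, gave 14429, 15132 and 17132, and Cd24a, the surface glycoprotein heat-stable antigen, 14952, 14715 and 16165. Laptm5, a lysosomal membrane protein of blood cells that limits B cell receptor levels, gave 13595, 13629 and 16201. Chromatin and RNA processing were represented by Hmgn1, a nucleosome-binding protein, at 15520.1, Rbbp4, a histone-binding subunit of several chromatin complexes, at 14129, and Srsf1, a splicing factor, at 13747. Cox7a2, a subunit of cytochrome c oxidase, was at 13579 and Selenow, a small selenoprotein, at 14153. Nup62, a nuclear pore protein, completed the list at 14713.

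The probe design moves with this ranking. Probe sets whose suffix (_x_at) marks probes shared with other sequences stood for 13 of the 30 genes (43.3%) against 3.81% of all genes. Nup62 was 1 of the 13. Its brightest probe set gave 14713, and its other probe sets 4793, 4623, 4277 and 78.3. Hmgn1, Cfl1 and Cd24a were also read from such sets. Their other probe sets averaged 14224, 9991 and 73.7 for Hmgn1, 6496 for Cfl1, and 11769 and 6208 for Cd24a. Replicate 3 gave the highest value in 94 of the 100 brightest genes and in 1151 of the 1819 abundant genes, and its hybridization spike-ins averaged 1.38 times those of replicate 1. The part of either feature in the order of the brightest genes was not tested. Rank order across all 18193 genes agreed between arrays with a Spearman coefficient of 0.961 to 0.964, and across the 9711 genes at or above the array median on all 3 arrays with 0.994 to 0.995. These coefficients are across genes, which are not independent replicates.

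The label of the sorted cells was checked against Bcl6, Fas and Mki67. All 3 were abundant on all 3 arrays. Bcl6 gave 8670.1, 8121 and 10699, and its other probe set averaged 886. Fas, which encodes the CD95 used for the sort, gave 3118, 3108 and 3191. Mki67, the proliferation antigen Ki-67, gave 8414, 8296 and 9212. Replicate 3 was the highest for Bcl6 and Mki67, and the arrays hardly differed for Fas.

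The wider list of germinal center identity genes had 17 measured members. Of these 13 were abundant (76.5%, against 10% of all genes), 4 were moderate and 0 were mixed or dim. The members of this and the other lists were chosen with earlier results of these data known, so such shares only describe the lists. Pou2af1 encodes OCA-B, the octamer coactivator without which germinal centers do not form, and it gave 10352, 10279.5 and 10708. Tnfrsf13c, the BAFF receptor that supports B cell survival, gave 10438, 9507 and 10765. Both were lowest on replicate 2. Gna13 and S1pr2 belong to the G protein pathway that confines B cells to the follicle center. Gna13 gave 7306, 6867 and 7777 and S1pr2 4441, 4525 and 4424. Rgs13, which dampens chemokine receptor signaling, gave 4737, 5032 and 4936, and Gcsam, a signaling adaptor restricted largely to germinal center lymphocytes, 3598, 3650.5 and 4061.

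Among the factors of the same list, Irf8, a transcription factor that works with BCL6, had a mean of 5130.1 ± 273, given here and below with the SD over the 3 arrays. Mybl1, a MYB family factor of dividing germinal center cells, was at 4785 ± 198, and Lmo2, a LIM-domain cofactor, at 4141 ± 109.8. Neil1, a glycosylase of base excision repair, was at 5964 ± 133 and Basp1, a membrane-associated signaling protein, at 6971 ± 497. The moderate members were Mef2b, an activator of Bcl6, at 2334, 3273 and 2204, Elk3, an ETS factor, at 1955, 2202 and 2039, Kif4, a chromosome-associated kinesin, at 1122, 1151 and 1078, and Gpr174, a lysophosphatidylserine receptor, at 122, 86.6 and 121. Mef2b was highest on replicate 2, and Kif4 differed little between arrays.

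**Figure D2:**
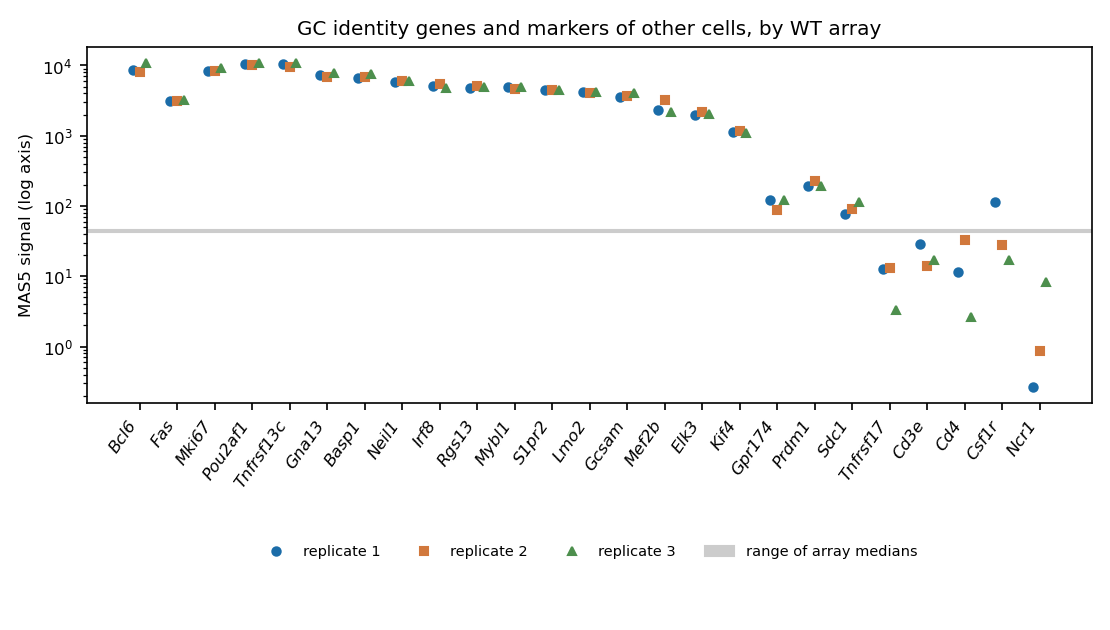
MAS5 signal (log axis) of germinal center identity genes and of markers of plasma cells, T cells, myeloid cells and natural killer cells, 1 symbol per WT array. The grey band is the range of the array medians; the genes from Bcl6 to Kif4 lie far above the band on every array, Gpr174, Prdm1 and Sdc1 lie closer above it, and Tnfrsf17, Cd3e, Cd4 and Ncr1 lie below it on all 3 arrays.

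General B cell genes were in the upper tiers throughout. Of 18 measured members of the pan-B list 16 were abundant (88.9%) and 2 moderate. Ms4a1, which encodes CD20, gave 11334, 11300.0 and 11313, nearly the same on each array. Cd79b and Cd79a, the signaling chains of the B cell receptor, were at 11006 ± 1052 and 7000.4 ± 327. Cd22, an inhibitory lectin, was at 8986 ± 875 and Spib, an ETS factor of B cells, at 8589 ± 441. The moderate members were Cr2, the complement receptor CD21, at 2874 ± 134, and Pax5 at 170.0, 106 and 100.3.

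The proteins that carry the B cell receptor signal were largely in the upper tiers. Of 22 measured members 15 were abundant (68.2%) and 7 moderate. The kinase Syk was at 5042 ± 129, the adaptor Blnk at 5826 ± 36.5, the phospholipase Plcg2 at 5026 ± 269 and the kinase Prkcb at 6034 ± 347. Negative regulators were in the same tier, including Inpp5d, the lipid phosphatase SHIP1, at 4927 ± 93.6, Ptpn6, the phosphatase SHP-1, at 3655 ± 184, and Fcgr2b, the inhibitory Fc receptor, at 3292 ± 44.5. The lowest members were Pik3ap1 at 2095 ± 147, Dapp1 at 905 ± 10.0, Shc1 at 842 ± 45.0 and Vav3 at 52.6 ± 6.52. Its relative Vav2 was abundant and Vav1 moderate.

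The measured transcription factors of the B lineage were all above the array median. Of 25 measured factors 15 were abundant (60%) and 10 moderate. The abundant factors were Pou2af1, Spib, Ets1, Bach2, Ikzf1, Tcf4, Ikzf3, Mef2c, Foxo1, Irf8, Foxp1, Bcl11a, Ebf1, Myb and Irf4. Bach2, a repressor that holds back plasma cell differentiation, gave 7649.8, 7148 and 8105. Foxo1, intact in these mice, gave 5432, 5299.9 and 5616, so its RNA was present on every WT array. Ikzf1 and Ikzf3, the Ikaros and Aiolos factors, were at 7243 ± 217 and 6965 ± 151, and Mef2c, which acts downstream of the B cell receptor, at 6904 ± 438. Irf4, a factor of the light zone and of plasma cells, stood near the lower edge of the abundant tier at 3124, 3322 and 2988. The moderate factors were Id3 at 1584 ± 61.5, Pou2f2 at 1512 ± 97.3, Tcf3 at 853 ± 107, Spi1 at 798 ± 22.0, Runx1 at 424 ± 42.7, Zeb2 at 338 ± 127, Runx3 at 288 ± 14.4, Klf2 at 188 ± 36.6, Pax5 and Lef1 at 65.7 ± 23.3. Pou2f1 is not analysed here.

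Factors that define other blood lineages were mostly below the array median. Of 17 measured factors 15 were dim (88.2%, against 42.4% of all genes) and 2 moderate. Gata3 and Gata1, the master factors of T helper 2 and of red blood cells, were at 1.25 and 5.61. Cebpa, of myeloid cells, was at 12.4, Eomes, of natural killer and CD8 T cells, at 12.9, Foxp3, of regulatory T cells, at 40.4, and Rora at 19.3. Gata2, Maf, Zbtb16, Klf1, Mitf, Nfe2, Pparg, Tal1 and Batf3 lay between 1.98 for Batf3 and 33.3 for Gata2. The exceptions were Tbx21, which encodes T-bet, at 352, 258 and 156, and Gfi1b, a repressor of the erythroid lineage, at 75.4, 129 and 96.7.

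Immunoglobulin transcripts were bright, with isotypes in different tiers. Ighm, the mu constant region, gave 10202, 9484 and 11016, and Ighg3, the gamma 3 constant region, 7281, 7337 and 7983. Jchain, the joining chain of IgM and IgA polymers, gave 11274, 10647 and 10953. Igha, the alpha constant region, was moderate at 597, 645 and 88.1. Its value on replicate 3 was far below the other arrays, and both of its other probe sets had the same order, with 414, 478 and 53.3 in 1 and 203, 203 and 57.7 in the other. Probe sets of immunoglobulin genes can share sequence with other isotypes and variable segments, so the split between isotypes is uncertain.

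Genes described for the dark and for the light zone were both found above the array median. Of 13 measured dark zone genes 9 were abundant, 3 moderate and 1 dim. Cxcr4, the chemokine receptor that draws cells into the dark zone, gave 7626, 7445 and 8384. Polh, the error-prone polymerase eta, was at 6281 ± 273, Ung, the uracil glycosylase that processes deaminated cytosines, at 4496 ± 241, Hmgb2 at 9029 ± 458 and Cdc25b, an activator of mitotic entry, at 6063 ± 293. Ccnd3, the cyclin that sustains dark zone divisions, was moderate at 2368, 2222 and 2246. Mme, which encodes CD10, a marker of human germinal center B cells, was dim at 7.39, 4.75 and 12.1. The zones were not sorted separately, and in bulk samples more cells of a kind and more RNA per cell cannot be told apart.

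Of 23 measured light zone genes 6 were abundant, 16 moderate and 1 dim. Cd83, the surface protein used to mark light zone cells, gave 7279.8, 7132 and 9295, highest on replicate 3. Nfkbia, the NF-kappaB inhibitor that is itself a target of the pathway, was at 6605 ± 207 and Egr1, an early gene of receptor signaling, at 3513 ± 275. Slamf1, an adhesion receptor, was at 3399 ± 82.8. Cd86 and Cd40, through which B cells engage helper T cells, were moderate at 2310.2 ± 18.8 and 3007 ± 143. Myc, transiently induced in cells selected by T cell help, was moderate at 608, 593 and 595, with very little spread. The lowest members were Ccnd2 at 517 ± 82.3, Rel at 486 ± 28.1, Nr4a1 at 91.1 ± 5.17 and the dim Il4i1 at 15.7.

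Plasma cell genes fell into separate tiers. Of 17 measured members 6 were abundant, 8 moderate, 1 mixed and 2 dim. The abundant ones were Jchain, Eaf2 at 5459 ± 42.7, Mzb1 at 5287 ± 178, Slpi at 3939.7 ± 499, Ell2 at 3798 ± 87.8 and Irf4. Eaf2 and Ell2 are transcription elongation factors, Mzb1 is a chaperone of immunoglobulin in the endoplasmic reticulum, and Slpi is a secreted protease inhibitor. The defining genes were in lower tiers. Prdm1 gave 191, 229 and 193, Sdc1, which encodes CD138, 77.6, 89.2 and 116, and Xbp1, the factor of the secretory program, 2567, 2609.8 and 2866. Tnfrsf17, the plasma cell receptor BCMA, was dim at 12.6, 13.0 and 3.27, Ccr10 at 19.6, and Fkbp11 was mixed at 45.0.

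Genes of resting, memory and marginal zone B cells lay lower than the plasma cell genes, though above the middle of all genes. Their median percentiles were 60.2, 55.2 and 62.7, against 86.9 for the plasma cell list. Their abundant shares were 15.4%, 9.09% and 18.8%, against 10% of all genes. Their dim shares were 7.69%, 9.09% and 12.5%, against 42.4%. Of 13 naive and follicular genes 2 were abundant (Btg1 at 7486 ± 396 and Foxp1 at 4874 ± 226), 9 moderate, 1 mixed and 1 dim. Ccr7, the receptor that leads naive cells into the T cell zone, was dim at 34.8, 38.3 and 27.1, and S1pr1, the receptor for egress into blood, was mixed at 19.8, 45.5 and 34.3. Klf2, which maintains quiescence and drives S1pr1, was at 223, 149.7 and 191 and Bcl2 at 122, 117 and 137. Of 11 memory genes 1 was abundant (Bach2), 9 were moderate and 1 was dim. Nt5e, the ectonucleotidase CD73, was at 1553 ± 80.7 and Hhex, a homeobox factor of memory B cells, at 604 ± 56.6. Pdcd1lg2, Zbtb32 and Cd80 were at 120.1 ± 10.0, 118 ± 33.7 and 69.1 ± 16.5, and Cd27 was dim at 15.6.

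Of 16 marginal zone and B-1 genes 3 were abundant, 10 moderate, 1 mixed and 2 dim. The abundant members were Zbtb20 at 6566 ± 607, Mzb1 and Notch2 at 3947 ± 255, the receptor that directs marginal zone fate. S1pr3, which holds marginal zone cells in place, was moderate at 2878, 2568 and 2815 and Dtx1, a NOTCH target, at 1265 ± 61.2. At the low end were Asb2 at 51.0 ± 2.88, the mixed Cd5 at 41.2, and the dim genes Itgam at 14.3 and Bhlhe41 at 10.3.

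The machinery that mutates and switches antibody genes lay above the array median for every measured member of the list. Of 24 measured genes 8 were abundant (33.3%) and 16 moderate. They included Pcna, the sliding clamp that recruits polymerase eta, at 10246 ± 1264, Polh and Ung as above, Msh6, the mismatch sensor, at 4548 ± 137, Apex1, the abasic site endonuclease, at 5159.9 ± 49.2, and Mdc1, a DNA break mediator, at 4805 ± 272. The lowest were Exosc3, an RNA exosome subunit, at 751 ± 29.7, Apex2 at 252 ± 51.6, Xrcc4, of end joining, at 204 ± 4.14, and Polq, of alternative end joining, at 76.3 ± 8.32. Of 17 genes of homologous recombination and the damage checkpoint 3 were abundant and 14 moderate. Mdm2, which degrades p53, was at 4382 ± 125, Clspn, the CHK1 adaptor, at 4313 ± 135 and Tipin, a fork protection factor, at 3332 ± 63.5. Cdkn1a, the p53 target p21, was the lowest at 176, 166 and 191.

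The recombinase that assembles antigen receptors in immature lymphocytes was dim. Rag1 gave 23.4, 3.12 and 7.45, Rag2 1.57, 8.88 and 1.02 and Dntt, the terminal transferase, 9.01, 2.23 and 20.6. Vpreb1, of the surrogate light chain, was also dim at 6.21. Igll1, its partner chain, was moderate at 1273, 1135 and 1182 on its brightest probe set and at 23.9 on the other, so the gene's tier rested on the choice of probe set.

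The measured genes of mitosis and of replication were all above the array median. Of 34 measured G2/M and mitosis genes 18 were abundant (52.9%) and 16 moderate. Cks2, a subunit of cyclin-dependent kinases, was at 9676 ± 669, Birc5, of the chromosomal passenger complex, at 9124 ± 81.1, Top2a, the topoisomerase of chromosome condensation, at 7589 ± 344, and Ccna2, cyclin A2, at 6044 ± 206. Cdk1 gave 5059, 4816 and 5371 and Ccnb2, cyclin B2, 4191, 4494 and 4657. The lowest were Ndc80 and Kif2c at 1201 ± 148 and 1139 ± 72.3, Ccnf at 896 ± 73.1 and Foxm1, the transcription factor of the mitotic program, at 643, 707 and 622. Replicate 3 was the highest array for 25 of the 34, beside 1151 of the 1819 abundant genes.

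Of 34 measured G1/S and replication genes 20 were abundant (58.8%) and 14 moderate. Rpa1, which coats single-stranded DNA, was at 10709 ± 546, Dnmt1, the maintenance methyltransferase, at 10352 ± 870.1, Rrm2, of ribonucleotide reductase, at 9157 ± 154, Pold1, of polymerase delta, at 9103 ± 779 and Prim1, the primase, at 7906 ± 465. The helicase subunits Mcm3, Mcm4, Mcm5, Mcm6 and Mcm7 lay between 5745 for Mcm4 and 6210.1 for Mcm7. The lowest were Ccne2 at 1186 ± 63.1, Gins2 at 1146 ± 94.4, E2f1 at 1009 ± 138 and Tyms, thymidylate synthase, at 209.8 ± 13.5.

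Among 19 cyclins, their kinases and inhibitors, 3 were abundant, 13 moderate and 3 dim. The abundant ones were Ccna2, Rbl1, the p107 pocket protein, at 4822 ± 253, and Cdk4 at 4159 ± 76.6. The D cyclins Ccnd3, Ccnd2 and Ccnd1 were all moderate, Ccnd1 near the array median at 62.8, 92.9 and 78.4. The inhibitors of the INK4 and KIP families were divided. Cdkn2c, Cdkn1b, Cdkn2d and Cdkn1a were moderate at 1628, 1246, 1009 and 178, and Cdkn2a, Cdkn2b and Cdkn1c were dim at 23.0, 11.0 and 5.29. In the MYC network Mxd3, a MYC antagonist of S phase cells, and Mga were abundant at 3167 ± 422 and 3118 ± 244, Max was at 2771 ± 105, and Mycl and Mycn were dim at 27.3 and 8.56.

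The promoters of mitotic genes share letters that the ranking did not use, and 3 of them are shown for this. Mitotic promoters are known for CCAAT boxes, bound by NF-Y, and for the cell cycle genes homology region (CHR), bound by MuvB complexes. The sequences are the 250 bases before the annotated start, 5′ to 3′ on the gene's strand, from RefSeq on GRCm38.p6. Capitals mark CCAAT or its reverse complement ATTGG, and the CHR letters TTTGAA. Cdk1 lies on the minus strand at chr10:69352913-69353162, Ccnb2 on the minus strand at chr9:70421555-70421804 and Mki67 on the minus strand at chr7:135716380-135716629.
Cdk1: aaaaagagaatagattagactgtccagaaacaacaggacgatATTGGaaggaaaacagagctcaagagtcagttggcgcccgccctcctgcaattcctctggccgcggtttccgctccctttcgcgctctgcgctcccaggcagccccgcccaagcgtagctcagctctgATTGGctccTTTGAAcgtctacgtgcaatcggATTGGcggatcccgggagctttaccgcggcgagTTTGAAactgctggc
Ccnb2: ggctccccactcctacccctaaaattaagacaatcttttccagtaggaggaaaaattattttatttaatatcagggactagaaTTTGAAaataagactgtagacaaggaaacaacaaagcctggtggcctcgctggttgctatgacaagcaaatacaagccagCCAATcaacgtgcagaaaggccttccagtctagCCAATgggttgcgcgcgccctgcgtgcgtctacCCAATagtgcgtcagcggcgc
Mki67: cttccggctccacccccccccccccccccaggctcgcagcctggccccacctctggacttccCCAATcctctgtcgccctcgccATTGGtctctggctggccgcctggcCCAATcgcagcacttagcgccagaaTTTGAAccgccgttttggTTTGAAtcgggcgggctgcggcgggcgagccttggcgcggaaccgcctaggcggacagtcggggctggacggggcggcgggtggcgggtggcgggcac

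In Cdk1 the CHR letters nearest the start began 15 bases before it, with the nearest ATTGG beginning 48 bases before it. In Ccnb2 the CCAAT boxes began 87, 54 and 21 bases before the start, evenly spaced, and TTTGAA lay further upstream, at 167. In Mki67 TTTGAA began 116 and 98 bases before the start, downstream of CCAAT matches at 188, 166 and 141. Over windows of 300 bases, 250 before to 50 after the start, CCAAT was found on either strand in 22 of the 28 G2/M genes with an entry (78.6%), against 38.2% of the 14368 ranked genes with an entry and 37.9% of all 27025 promoters in the table. TTTGAA, read as TTCAAA on the other strand, was found in 20 of 28 (71.4%), against 13.3% and 18.1%. Both were found in 18 of 28 (64.3%), against 5.37% of the ranked genes. The G1/S and replication genes held CCAAT in 18 of 27 windows (66.7%) and TTTGAA in 4 of 27 (14.8%). The motifs were counted separately even where their bases could overlap. A match describes the letters in this window and does not show binding.

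Protein synthesis, RNA processing and protein turnover formed the largest block of abundant genes. Over the lists of ribosomal proteins, translation, ribosome biogenesis, proteasome, splicing, chaperones and actin, 145 of 193 genes were abundant (75.1%) and 5 were dim. Of 49 cytosolic ribosomal protein genes 39 were abundant, 7 moderate, 1 mixed and 2 dim. The lowest were Rpl37 at 84.8, Rps4l at 58.3, Rpl3l, a paralog of muscle, at 5.54, and Rps16. Ribosomal genes have many near-identical pseudogenes, so signals of single members are uncertain. Without probe sets of shared suffix (here _x_at, _s_at and _a_at) the abundant count of the whole block was 83. Genes with no other probe set left the lists in that setting, so this count is not out of 193.

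Of 19 translation factors 15 were abundant and 4 moderate. Eef1a1, which brings aminoacyl-tRNA to the ribosome, was at 13166 ± 1555 and Eif5a at 9711 ± 380.0. The lowest was Eif4ebp1, the inhibitor of cap-dependent translation controlled by mTOR, at 1219 ± 33.3. Of 21 ribosome biogenesis genes 10 were abundant and 11 moderate, with the nucleolar proteins Npm1 at 8857 ± 657 and Ncl at 6572 ± 150.2 high and the RNA polymerase I subunits Polr1a and Polr1b low at 257 ± 19.6 and 155 ± 0.680.

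Splicing had the largest abundant share of the lists compared here, with 24 of 26 factors (92.3%), among them Snrpg at 11548 ± 1076, Snrpe at 11230.0 ± 693 and Hnrnpu at 9909 ± 512. Prpf8 and U2af2 were moderate at 2309 ± 48.7 and 1778 ± 76.2. Of 39 proteasome genes 26 were abundant and 11 moderate. The dim ones were Psma8, a testis subunit, at 14.6 and Psmb11, the subunit of the thymic cortex, at 4.67, so the tissue-restricted subunits stood apart from the common ones such as Psmc4 at 8247 ± 337 and Psmb4 at 8153 ± 292.

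Of 18 cytosolic chaperones 15 were abundant, led by Hspa8 at 12621 ± 1272 and the chaperonin subunit Cct2 at 10994 ± 1247. The stress-inducible Hspa1b and Hspa1a were lower, at 244 in the moderate and 10.3 in the dim tier. Of 21 actin genes 16 were abundant and 5 moderate, including Coro1a, an actin regulator of leukocytes, at 11846 ± 1297 and Lcp1, the actin bundler L-plastin, at 9884 ± 675.

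Most genes of mitochondrial respiration were abundant, and glycolytic genes were divided between the tiers. Of 33 oxidative phosphorylation subunits 25 were abundant (75.8%) and 8 moderate. Atp5a1, of ATP synthase, was at 12237 ± 862 and Cox5b, of cytochrome c oxidase, at 9793 ± 946. The lowest was Cox7c at 706 ± 39.8. Of 17 glycolysis genes 8 were abundant (47.1%), 7 moderate and 2 mixed. Aldoa, Ldha, Pgk1 and Pgam1 were at 9378 ± 940.1, 8389.6 ± 445, 7719.6 ± 374 and 5894 ± 158. The isoforms of other tissues were at the low end, with Eno3 at 195 ± 18.3, Pfkm at 76.5 ± 12.5, Ldhb at 60.6 and Hk3 at 34.4. The difference between the lists was not tested. Metabolic genes as a whole were abundant for 59 of 108 genes. Without probe sets of shared suffix the count was 39, among fewer genes.

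Nucleotide and lipid synthesis genes were above the array median throughout. Of 22 nucleotide synthesis genes 9 were abundant and 13 moderate. Nme2, a nucleoside diphosphate kinase, was at 9265 ± 451, Mthfd1, of the folate cycle, at 6225 ± 264, and Paics, of purine synthesis, at 5252 ± 129. Impdh1 was the lowest at 86.3 ± 13.0. Of 17 cholesterol and fatty acid genes 7 were abundant and 10 moderate. Scd1, the stearoyl-CoA desaturase, was at 9812 ± 380.3, Acly, which makes cytosolic acetyl-CoA, at 8319.7 ± 619, Hmgcs1 at 7289 ± 545 and Insig1, the sterol sensor, at 6084 ± 252. Of 19 genes of endoplasmic reticulum folding and secretion 10 were abundant, 8 moderate and 1 mixed, from Calr, calreticulin, at 8228 ± 394 to the mixed Pdia4 at 43.5, 69.1 and 53.1.

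Antigen presentation by MHC class II was a prominent class. Of 16 measured genes 11 were abundant (68.8%), 4 moderate and 1 dim. H2-Ab1 gave 11556, 12339 and 12218, H2-Eb1 10366, 10671 and 11115 and H2-Aa 9834, 9813 and 10378. These are the chains that hold peptide for helper T cells, and replicate 1 was the lowest array for H2-Ab1 and H2-Eb1. Ctss, the cathepsin that trims the invariant chain in B cells, was at 9329 ± 1902, and H2-DMb2 and H2-Ob, which edit the peptide load, at 9709.8 ± 897 and 6635 ± 55.1. Ciita, the transactivator of the class, was moderate at 1245 ± 230.3. Ctsl, the cathepsin that does this work in thymic epithelium, was dim at 22.3.

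Of 15 MHC class I genes 11 were abundant and 4 moderate. B2m was at 12511 ± 941, the immunoproteasome subunits Psmb8 and Psmb10 at 5271 ± 232 and 5177 ± 666, and the peptide transporter Tap1 at 2517 ± 185. Of 16 genes of costimulation 2 were abundant, 11 moderate, 2 mixed and 1 dim. Icosl, the ligand that engages ICOS on follicular helper T cells, gave 4561, 4619 and 4417. Cd80 was moderate, as was Cd86, and lay near the array median at 53.5, 67.5 and 86.4. Cd70 was mixed at 42.7, and Tnfsf4, the OX40 ligand, was dim at 5.01. Tnfrsf14, which encodes HVEM, was mixed at 30.8, 43.8 and 40.0.

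Receptors and adhesion genes were spread over the tiers, with 11 of 96 abundant (11.5%, against 10% of all genes) and 29 dim (30.2%, against 42.4%). Of 19 chemokine and lipid receptors 3 were abundant, 8 moderate, 1 mixed and 7 dim. Cxcr4, S1pr2 and Gpr18, at 3358 ± 152, were abundant. Cxcr5, the receptor for the follicular chemokine, was moderate at 1868, 1872 and 1720.2, P2ry10 was at 1317 ± 44.5, and Gpr183, the oxysterol receptor that draws cells out of the follicle center, was at 376, 244 and 380.4. Receptors of myeloid and mucosal homing were dim, including Ccr2 at 5.57, Ccr1 at 12.4, Cx3cr1 at 19.3 and Ccr9 at 36.2.

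Of 22 cytokine receptors 2 were abundant, 13 moderate, 2 mixed and 5 dim. The abundant ones were the TGF-beta receptors Tgfbr1 at 4037 ± 282 and Tgfbr2 at 3604 ± 74.5. The receptors for the helper T cell cytokines IL-21 and IL-4 were moderate, Il21r at 1334, 1356 and 1162 and Il4ra at 1121, 992 and 975. Il2ra, Il7r, Il13ra1 and Il18r1 were dim at 25.3, 14.7, 14.7 and 12.7. Of 18 receptors of the TNF family 2 were abundant (Tnfrsf13c and Fas), 7 moderate, 1 mixed and 8 dim. Tnfrsf13b, which encodes TACI, was at 2738 ± 89.6, while Ltbr, Tnfrsf9 and Tnfrsf1a were dim at 10.0, 8.85 and 5.23.

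Of 18 Toll-like receptors and adaptors 3 were abundant, 9 moderate, 1 mixed and 5 dim. Ly86 and Cd180, the MD-1 and RP105 complex of B cells, were at 6267 ± 684 and 5103 ± 410.1, and Tlr1 at 3834 ± 195. Tlr9 was dim at 34.1, 35.1 and 39.1 and Tlr7 mixed at 44.6, 48.3 and 59.6, close to the array median on each array. Tlr8, Tlr5, Cd14 and Tlr2, at home in other cells, were dim at 0.801, 1.53, 10.7 and 33.4. Of 19 integrin and adhesion genes 1 was abundant, 13 moderate, 1 mixed and 4 dim. Itgav, the alpha V chain, was at 4129, 4179 and 4174 and its partner Itgb3 at 2973, 2772 and 3032. Icam1, Itgb2, Icam2 and Cd44 were moderate, and Itgam, Itgax, Itga2 and Itga2b were dim.

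Death and survival genes showed an uneven BCL2 family. Of 14 measured members 3 were abundant, 8 moderate and 3 dim. Mcl1, the survival factor germinal center B cells depend on, gave 9840.0, 10049 and 10961. Bcl2, which BCL6 represses, gave 122, 117 and 137, and Bcl2l1, which encodes BCL-XL, 225, 204 and 248. The killers Bid and Bcl2l11 (BIM) were abundant at 6631 ± 105 and 3096 ± 223, and Pmaip1 (NOXA) was moderate at 1013 ± 4.18. Bok, Bbc3 and Hrk were dim at 25.7, 23.7 and 11.2. Of 19 caspase and death genes 3 were abundant, 13 moderate and 3 dim. Casp9 was at 4833 ± 206, and Casp12, Casp14 and Mlkl, the executor of necroptosis, were dim at 8.42, 7.92 and 5.84.

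Of 15 NF-kappaB pathway genes 2 were abundant (Nfkbia and Ikbkb, the latter at 3578 ± 177) and 13 moderate, with Traf2, Relb and Map3k14 the lowest at 317 ± 33.3, 248 ± 12.3 and 139 ± 5.67. Of 20 immediate early genes 3 were abundant (Jund at 7363 ± 603, Klf6 at 4107 ± 309.7 and Egr1), 12 moderate, 2 mixed and 3 dim. Nr4a2, Ier3 and Fosb were dim at 40.2, 24.4 and 15.3. Fos and Jun, which pair in the AP-1 factor, were moderate at 97.4, 102 and 143 and 59.4, 81.0 and 85.5.

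Of 26 chromatin modifiers 12 were abundant, 13 moderate and 1 dim. Ezh2, the methyltransferase on which germinal center B cells depend, was at 5435, 5650.2 and 5697, with its partners Suz12 at 6070.5 ± 340.0 and Eed at 4348 ± 119. Kmt2d, Crebbp and Ep300, often mutated in human lymphomas of this origin, were at 6272 ± 333, 5541 ± 171 and 3247 ± 149. Tet1 was dim at 20.6 while Tet2 was moderate at 774 ± 79.3. Of 10 high mobility group and histone variant genes 5 were abundant and 5 moderate, from Hmgn1 and H2az1 at 10611 ± 731 to H3f3b at 130.4 ± 19.2.

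The classes with most genes below the array median were secreted mediators, genes of other cells and genes of other tissues. Of 33 cytokines and chemokines 26 were dim (78.8%, against 42.4% of all genes), 2 mixed and 5 moderate. The moderate ones were the lymphotoxins Lta at 2095, 2144 and 1522 and Ltb at 1032, 1088 and 972, Tgfb1 at 757, 783 and 793, Tnf at 355, 294 and 364 and Il12a at 109, 62.3 and 76.6. Il6 was at 2.04, Il10 at 23.5, Ifng at 3.41 and Il21, the product of follicular helper T cells, at 5.24.

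Markers of other cells a B cell sort could hold were largely dim. Over all those lists, counted together with the 17 lineage factors of other cells described above, 1 of 124 genes was abundant. Of the 124, 88 were dim (71%, against 42.4% of all genes). Below the lower olfactory receptor mark on all 3 arrays lay 47 of the 124, beside 4972 of all 18193 genes, a weaker contrast. The abundant gene was Irf8, listed for dendritic cells and also a germinal center gene. Of 16 T cell genes 10 were dim (62.5%, against 42.4% of all genes), 3 mixed and 3 moderate. Cd3e gave 28.9, 14.1 and 17.0, Cd3d 32.8, 3.76 and 18.6 and Cd4 11.5, 32.9 and 2.61. These defining genes were below the array median on every array, Cd3e and Cd3d being highest on replicate 1 and Cd4 on replicate 2. The moderate ones were Cd247 at 134 ± 22.1, Lat at 99.1 ± 4.98 and Ctla4 at 71.7 ± 19.7. Of 11 natural killer genes 10 were dim and only Prf1, at 312 ± 60.3 on 1 probe set and 15.2 on the other, was moderate.

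Of 22 myeloid genes 10 were moderate, 4 mixed and 8 dim (36.4%, against 42.4% of all genes). The moderate ones included Cybb, of the phagocyte oxidase that B cells also express, at 2332, 2700.1 and 2516, Ctsb at 1860.3 ± 97.1, Mpeg1 at 942 ± 433 and Cd68 at 353 ± 30.9. Macrophage genes were divided. C1qa at 2.92, 3.80 and 3.61, C1qc at 1.56, Cd14 at 10.7 and Marco at 10.9 were dim, C1qb and Csf1r were mixed with means of 128 and 53.6, and Lyz2 was moderate at 102. The summed signal of the list was 6801, 7138 and 6066 on replicates 1, 2 and 3. Of 11 neutrophil genes 9 were dim and 2 mixed (S100a9 at 159, 20.0 and 29.8 and S100a8 at 97.4, 20.0 and 4.12), with a sum of 364, 127 and 138.

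Erythroid and platelet genes were dim for 9 of 10, with Hba-a1 at 1.84 and Alas2 at 9.15 and the exception of Car2 at 212 ± 11.2. Of 11 dendritic cell genes 6 were dim (54.5%, not far from the 42.4% of all genes). Among them were Itgax at 21.8 and Xcr1 at 10.6, whereas Flt3 was moderate at 633, 622 and 568. Of 18 stromal and endothelial genes 13 were dim (72.2%), including Col1a1 at 17.3 and Cdh5 at 26.1, 2 were mixed and 3 moderate. The moderate ones were Fcer2a, which encodes CD23 and is also a B cell gene, at 2112 ± 158, Pecam1 at 178 ± 22.4 and Acta2 at 147 ± 24.4. All 8 mast cell and basophil genes were dim.

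Genes of tissues outside the spleen were largely dim. Of 170 genes 151 were dim (88.8%), 6 were mixed and 13 lay at or above the array median on all 3 arrays. All 38 olfactory receptors were dim, as were 41 of 48 keratins, 14 of 15 liver genes, 14 of 16 muscle genes, 12 of 14 neuron and glia genes and 12 of 16 germline genes. Apoa1, an apolipoprotein of liver, was at 11.2, Gfap at 5.22, Ins2 at 2.96 and Myh6 at 8.22. Some of the 13 had several probe sets. Krt222 was at 1904, 1773 and 1697, and its other probe set averaged 1212. Mbp, myelin basic protein, was at 1232, 1333 and 1275 on 1 of 8 probe sets, with the others between 11.5 and 50.8. Mylpf, a muscle myosin light chain, was at 435, 414 and 336, Apoa2 at 97.0, 214 and 179 and Prm1, protamine, at 184, 232 and 166.

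**Figure D3:**
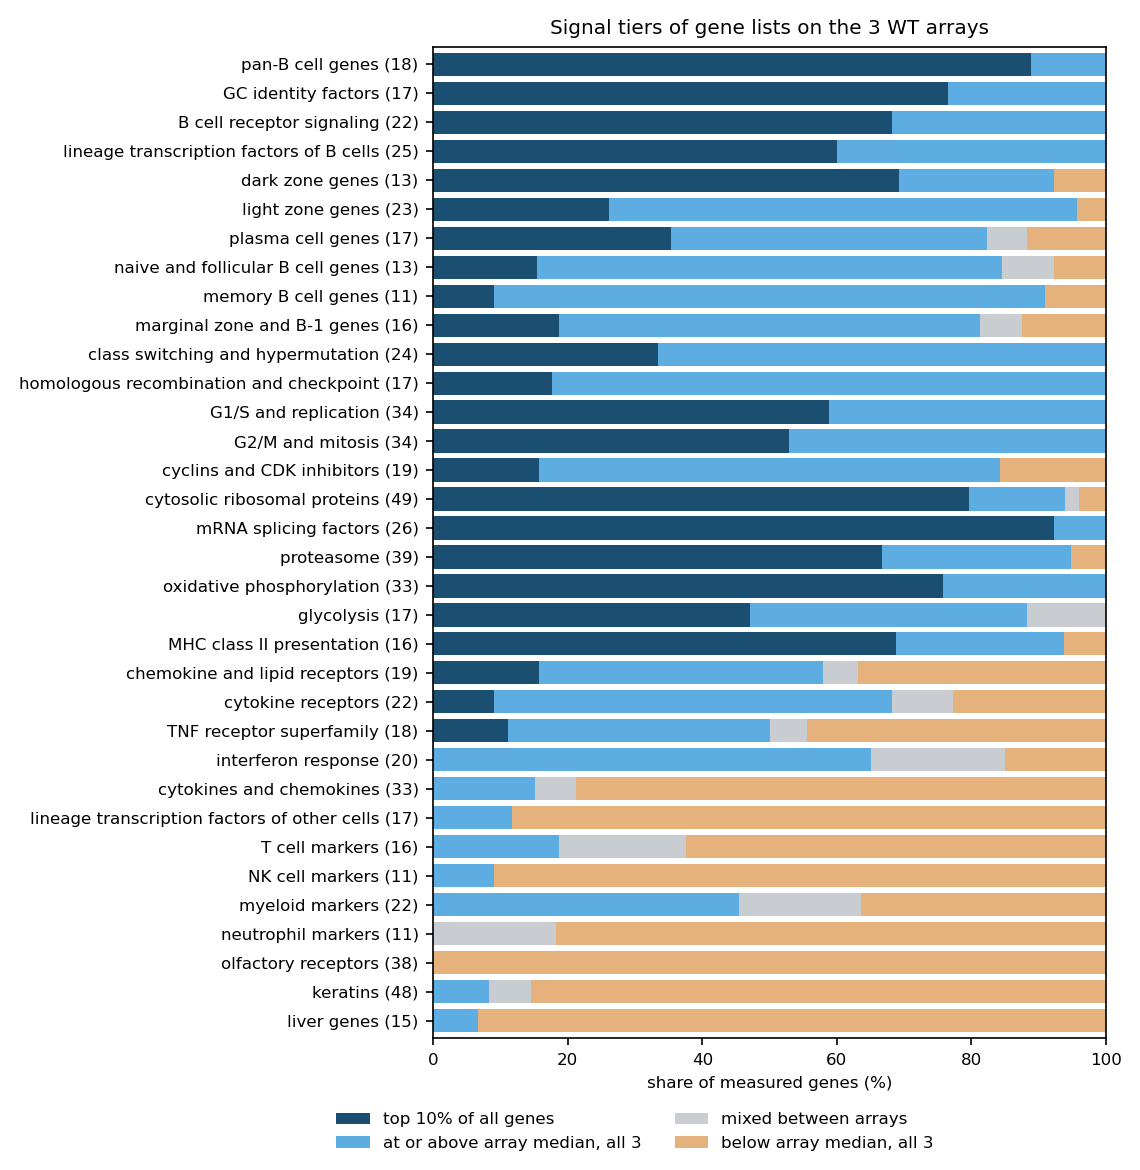
Share of the measured genes of each list (%, number of genes in brackets) in the top 10% of all genes, at or above the array median on all 3 WT arrays, mixed between arrays and below the array median on all 3. Pan-B, splicing and ribosomal protein genes have the longest dark bars, and the olfactory receptors are below the median throughout.

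The 3 arrays differed little for most genes above the array median. Among the 9711 genes at or above the array median on all 3 arrays, the highest array exceeded the lowest by more than 2-fold in 95 (0.978%), and the median coefficient of variation was 6.92%. Genes that went from the top 20% on an array to below the median on another numbered 2, and both were sex-linked. Xist, the RNA that coats the inactive X chromosome, gave 34.2, 6828 and 6966. Eif2s3y, on the Y chromosome, gave 4858, 15.3 and 6.81. The Y-linked Kdm5d at 677, 5.46 and 2.38 and Uty at 264, 4.31 and 0.907 had the same order as Eif2s3y. Replicate 1 thus stood apart from the other two in both directions, and the sex of the mice is not given in the labels used here.

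Among genes at or above the array median on all 3 arrays, the 15 with the largest spread were of varied function. Stx3, a syntaxin of membrane fusion, gave 1559, 64.6 and 669 on 1 of 4 probe sets, with the other 3 averaging 45.3, 12.1 and 5.77. Fgfbp3, an FGF-binding protein, gave 657, 90.3 and 75.9, high on replicate 1, and Hddc3, a nucleotide hydrolase, 353, 75.3 and 66.6, also high there. Igha was described above. C130026I21Rik gave 4522, 1088 and 4224 and was low on replicate 2. Slc15a2, a peptide transporter, gave 1299, 3516 and 1254 and was high on replicate 2, on 1 of 3 probe sets. Elovl6, a fatty acid elongase, gave 422, 401 and 1149, and its other probe sets were also highest on replicate 3, at 193 and 93.4. The remaining genes among the 15 were AW046200, Tmprss2, 5830444B04Rik, Mb21d2, Gm10033, Ifit3, Lyz1 and Lyz2.

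Lyz1 and Lyz2, lysozymes of macrophages and neutrophils, were highest on replicate 1. Lyz1 gave 394, 126 and 113 and Lyz2 170.1, 74.5 and 60.0. The dimmest of the 3 Lyz1 probe sets averaged 26.0. Csf1r, the macrophage growth factor receptor, gave 115, 28.3 and 17.1 on its brightest probe set, 31.0, 57.2 and 28.1 on another and 32.1, 28.8 and 24.7 on the last, so the probe sets disagreed. C1qb, a complement chain of macrophages, gave 269, 96.5 and 19.1 on its brightest probe set and 185, 103 and 20.9 on another. The last C1qb probe set was below the array median throughout, at 18.7, 10.7 and 12.1. Replicate 1 was the highest array for 14 of the 22 myeloid genes and 5 of the 11 neutrophil genes, beside 2364 of the 7893 moderate genes. The comparison is loose, since only 10 of the myeloid and 0 of the neutrophil genes were moderate, and dim values carry little order. The summed myeloid signal was highest on replicate 2. Cybb, which B cells also express, was the brightest gene of that list and gave 2332, 2700.1 and 2516, so the sum leans on it. The part of macrophages and neutrophils in other genes that were high on replicate 1 was not tested.

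Interferon-induced genes moved with replicate 2. None of the 20 measured genes was abundant, 13 were moderate, 4 mixed and 3 dim. Replicate 2 was the highest array for 17 of the 20, against 3370 of the 7893 moderate genes. Ifit3, an interferon-induced antiviral protein, gave 55.3, 194 and 64.7, and Oasl1, an inhibitor of interferon production, 70.3, 184 and 117. Irf7, the factor that amplifies the response, gave 242, 384 and 253 and Usp18, a brake on it, 189.8, 326 and 214. The summed signal of the list was 4210, 5470 and 4152.

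**Figure D4:**
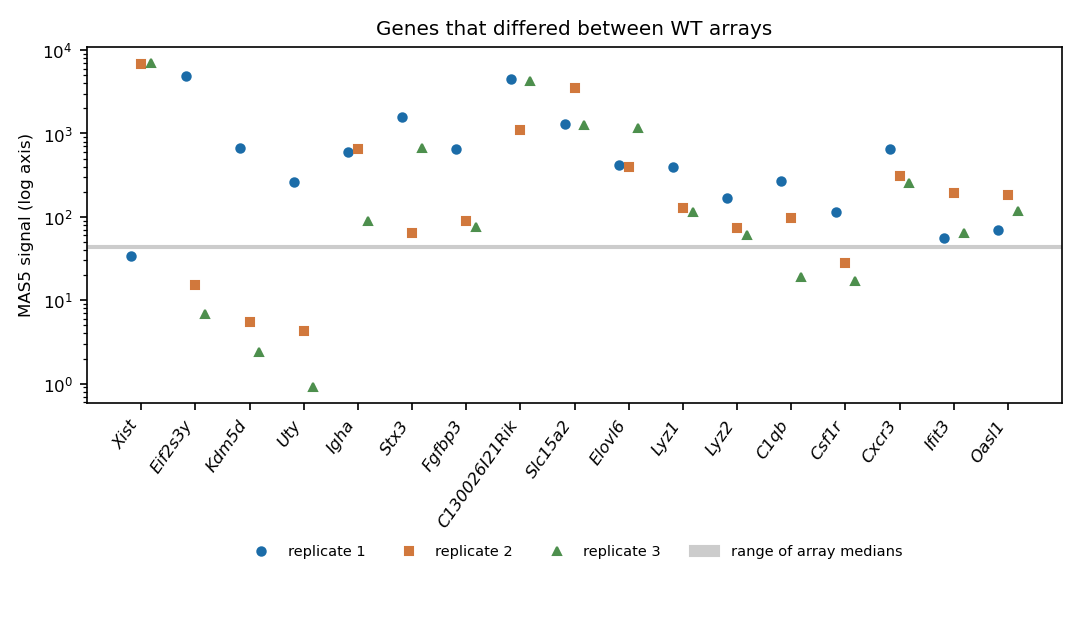
MAS5 signal (log axis) of genes that differed between the WT arrays, 1 symbol per array, with the range of the array medians in grey. Xist is low and Eif2s3y, Kdm5d and Uty are high on replicate 1; Igha is low on replicate 3; Ifit3 and Oasl1 are highest on replicate 2.

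The promoters of the tiers differed in their CpG content, a feature the ranking did not use. A CpG island is a stretch where the dinucleotide CG has not been lost, and promoters of widely expressed genes usually lie in one. In the windows of 300 bases the median ratio of observed to expected CpG was 0.848 in 1516 abundant genes, 0.783 in 6449 moderate, 0.568 in 576 mixed and 0.378 in 5827 dim genes. The ribosomal protein genes had a median of 0.903 (43 genes) and the G2/M genes 0.860 (28 genes). The B cell lists differed among themselves. The median was 0.669 in 15 germinal center identity genes and 0.530 in 21 B lineage transcription factors. In 14 pan-B genes it was 0.306, and 10 of these 14 had a ratio under 0.4 (71.4%), a mark chosen after the values were seen, against 8.11% of all abundant and 52.5% of all dim genes. Spib, Fcrla, Vpreb3, Bank1 and Cd22 were among the 10, whereas Pax5, Ebf1 and Ralgps2 were not. The letters TATAAA were found on either strand in 7.65% of abundant and 14.4% of dim promoters, and in 14.2% of all promoters in the table. The octamer ATGCAAAT, the site of the OCT factors that Pou2af1 assists, was found in 2 of 14 pan-B windows (14.3%), those of Vpreb3 and Blnk, against 1.49% of ranked genes and 1.75% of all promoters. Receptor signaling genes held it in 2 of 20 windows, germinal center identity genes in 1 of 15. Naive and follicular genes held it in 2 of 11, memory genes in 1 of 11. It was in 0 of 21 B lineage factors, 0 of 12 dark zone genes and 0 of 13 light zone genes. Plasma cell genes had 0 of 15, and marginal zone and B-1 genes 0 of 14. Abundant genes as a whole held it in 1.19%. Whether it goes with B cell genes was not tested.

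**Figure D5:**
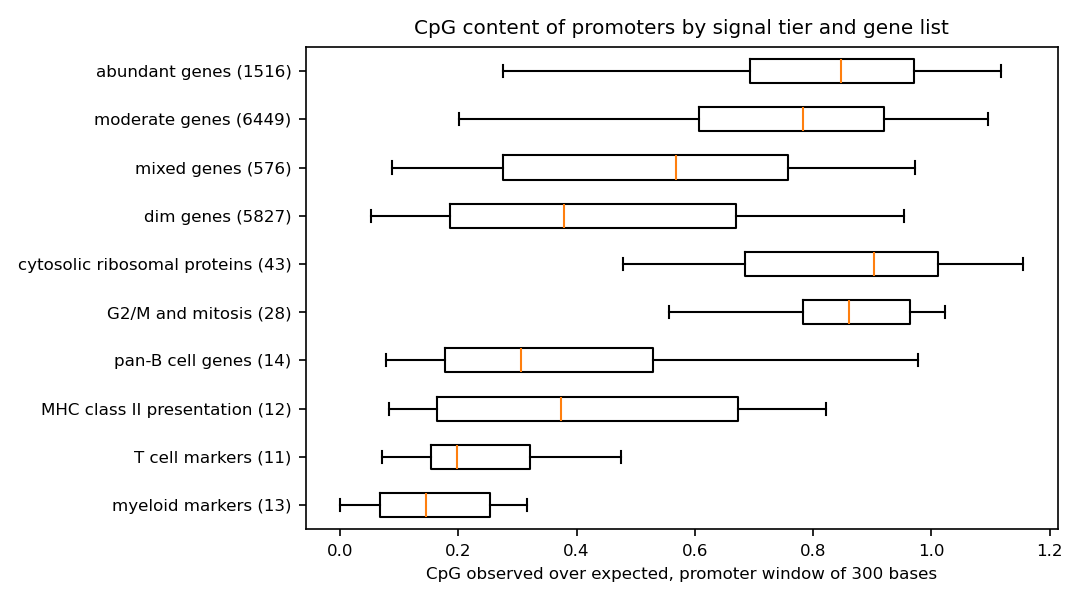
Observed over expected CpG in promoter windows of 300 bases (number of genes in brackets), by tier and gene list. Boxes span the 25th to 75th percentile with the median as a line, and whiskers the 5th to 95th; medians fall from 0.848 in abundant to 0.378 in dim genes, and the pan-B genes lie at 0.306.

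The promoters of Bcl6, Cd79a and Rag1 show this range, with CG in capitals in the 250 bases before the start, from RefSeq on GRCm38.p6. Bcl6 (minus strand, chr16:23988853-23989102) is an abundant gene with 31 CpGs in its window of 300 bases. Cd79a (plus strand, chr7:24897247-24897496) is an abundant gene with 8, and Rag1 (minus strand, chr2:101649533-101649782) a dim gene with 3.
Bcl6: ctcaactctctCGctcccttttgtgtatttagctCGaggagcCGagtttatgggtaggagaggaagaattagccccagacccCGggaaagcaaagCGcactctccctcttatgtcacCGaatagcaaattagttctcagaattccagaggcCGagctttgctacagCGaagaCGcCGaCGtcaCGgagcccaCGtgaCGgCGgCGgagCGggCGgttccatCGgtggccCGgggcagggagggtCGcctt
Cd79a: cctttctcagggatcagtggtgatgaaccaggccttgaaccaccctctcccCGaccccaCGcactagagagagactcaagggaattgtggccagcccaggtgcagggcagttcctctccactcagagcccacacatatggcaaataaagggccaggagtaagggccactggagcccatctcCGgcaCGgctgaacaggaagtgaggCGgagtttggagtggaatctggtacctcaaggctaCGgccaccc
Rag1: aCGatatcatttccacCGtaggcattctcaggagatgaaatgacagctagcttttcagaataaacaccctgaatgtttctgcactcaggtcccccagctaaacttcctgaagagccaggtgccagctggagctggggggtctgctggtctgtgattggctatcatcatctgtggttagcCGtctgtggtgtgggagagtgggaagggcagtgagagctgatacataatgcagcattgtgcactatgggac

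The printed part holds 21 CpGs in Bcl6, most of them close to the start, 6 in Cd79a and 3 in Rag1. Cd79a and Rag1 both have few CpGs, and they lie in opposite tiers in these cells.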

How the data were processed

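Sorted germinal center B cells were profiled on Affymetrix mouse expression arrays after amplification of total RNA, and the intensity values deposited by the authors are MAS5 signals, per the submitters' processing notes, scaled on each array to a trimmed mean of 500.0, as computed from the deposited table. The MAS5 version and settings are not given in the sources used here. Only the 3 WT columns were used. Of 45101 probe sets, 34945 had 1 gene symbol, 932 several and 9160 none, and 64 were controls. Of those with 1 symbol 34741 matched RefSeq (GRCm38.p6). The brightest probe set by mean stood for each gene. Signals were not transformed or renormalized, and the number of arrays limits the precision.

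Tiers, 64 gene lists (1124 measured genes), CpG ratios and motif counts were computed with Python 3.11.15, numpy 2.4.6 and pandas 2.3.3 and tested on simulated data. The lists and their members were chosen with earlier results of these data known. Named genes are the 30 brightest, the germinal center identity genes, up to 6 highest and 4 lowest genes of each other list, all lineage factors, sex-linked genes, tier edges and the 15 largest spreads. Genes named outside this rule (some markers and members between those ends) were chosen after their values were seen. Listed genes without a probe set of 1 symbol (119 names) are not analysed here. Protein length, planned as a feature, was not analysed here. Alternatives were the geometric mean of probe sets, no probe sets of shared suffix (_x_at, _s_at and _a_at), quantile normalization and the median over arrays. Other tier marks, other filters and leaving out each array were also tried.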

Additional observations from a re-analysis of the deposited data

How the results depend on the processing

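Quantile normalization of the 3 arrays, the median over arrays and leaving out replicate 3 moved 0 of 147 list counts each. Over all alternatives 1188 of 1323 such comparisons stayed within 1.5 times and 135 moved. Some of these could not move. Dim counts do not depend on the top share or on the median over arrays, and abundant counts do not depend on the array mark. A count of 0 in both settings was also scored as unmoved. The tally is therefore no measure of how stable the lists are. Without probe sets of shared suffix the abundant genes numbered 83 for protein synthesis, splicing and turnover and 39 for metabolism. These lists then held fewer genes, because a gene with no other probe set dropped out. With the olfactory receptor 95th percentile in place of the array median, 4972 of 18193 genes lay below the mark on all arrays. So did 47 of the 124 genes of other cell types. With the top 5% as abundant, 34 germinal center and B cell identity genes, 25 cell cycle genes and 39 metabolic genes remained in the tier. The count of genes whose arrays spread over 2-fold was 162 with the geometric mean of probe sets and 4570 with no filter and an offset, and 37 to 48 when an array was left out, since fewer arrays give a smaller range. The lowest Spearman coefficient between arrays was 0.956 with the geometric mean, 0.955 without shared suffixes, 0.994 among genes at or above the array median on all 3 arrays, and 0.961 to 0.964 when an array was left out. The cause of the other changes was not tested. No paired analysis was possible because only 1 group was described. Signals near background limit the order of dim genes.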

Other observations

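Of the 1819 abundant genes 1446 were in none of the gene lists, and some of known function stood high among them, chosen after their values were seen. Surface proteins of lymphocytes included Ly6e at 11311, 11685 and 12776, the tetraspanin Cd53 at 11569, 11194 and 12278, Cd52 at 10668, 11019 and 11962 and Ptprc, which encodes the B220 used for the sort, at 7443, 8036 and 8671. Sulf2, which trims heparan sulfate, gave 10217, 9975 and 10039.9, with almost no spread between arrays. Stmn1, which destabilizes microtubules in dividing cells, gave 11826, 11548 and 14152 and was highest on replicate 3. Redox and iron genes were represented by Txn1, thioredoxin, at 11296, 10979 and 11859 and Fth1, the ferritin heavy chain, at 11051, 10704 and 11612. Hmces, a sensor of abasic sites in single-stranded DNA, gave 8421, 8667 and 9747, and Apobec1, a cytidine deaminase that edits RNA, gave 3904, 3903 and 3895. Chromatin proteins included Dek at 10532, 10748 and 11209, Psip1 at 9129, 8678 and 9722 and the histone chaperone Asf1b at 8039, 7849.6 and 8573. Klhl6, an adaptor that germinal center B cells need, gave 7730.4, 8523 and 8608, and Zfp36l1, a protein that destabilizes AU-rich RNAs, 8137, 8079.9 and 8372.

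Tiers were spread over the chromosomes unevenly. The abundant share of the ranked genes ran from 6.86% of 1413 genes on chromosome 7 to 12.0% of 724 genes on chromosome 15, and the dim share from 34.2% of 834 genes on chromosome 17 to 49.8% of 617 genes on chromosome X.

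Different probe sets of a gene often disagreed in tier. Of 1412 abundant genes with several probe sets, 340 had another probe set with a mean below the array median.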
